A study of Mus musculus with 2 samples.

Results

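The genes described here are 35 endothelial, stromal and extracellular matrix genes, read in F4/80-positive macrophages of the mouse fetal liver at E15.5, that is, in mid to late gestation. They were taken as a named list of 16 matrix genes, 11 genes of matrix proteases, their inhibitors and receptors, and 8 markers of endothelial or stromal cells. Of these, 34 had at least 1 probe set that names no other gene, out of 18193 genes with such a probe set. Osteopontin, encoded by Spp1, had none in the annotation used and was not analysed here. Cells carrying both Mac-1 and F4/80 were sorted from c-Maf+/+ (wild type) and c-Maf-/- (c-Maf KO) embryos of the C57BL/6J strain, and each genotype was hybridised to 1 array. c-Maf is a DNA-binding protein of the leucine zipper class, and the comparison asks which genes differ when it is missing. With 1 array a genotype there was no replicate, so no difference below has a replicate check, a standard error or a test, and each statement describes these 2 arrays. The labels do not say whether RNA of several embryos was pooled.

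Collagens I and III form the fibrils of connective tissue, whereas collagen IV, the laminins and nidogen build basement membranes. Hepatic sinusoids lack a continuous basement membrane, and in the liver most matrix is laid down by stellate and other stromal cells and by endothelium. Macrophages contribute chiefly fibronectin, thrombospondin, matrix metalloproteinases, their tissue inhibitors and the urokinase receptor. Markers such as Cdh5 or Pdgfrb belong to endothelial or stromal cells and not to macrophages. In bulk RNA, fewer cells of a type and less RNA per cell cannot be told apart.

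The deposited intensities were lower on the c-Maf KO array, with a median over all probe sets of 4.73 in wild type and 2.98 in c-Maf KO. The median gene with signal on both arrays had a deposited log2 ratio of c-Maf KO over wild type of -0.93. Values are therefore given as deposited intensity on each array, followed by the level-adjusted log2 ratio, which was taken after quantile normalization and is relative to that shift. The floor is the median of all values of both arrays, 3.70 on the deposited and 3.75 on the level-adjusted scale. Where 1 array is below the floor the ratio is a bound (at least N-fold), and where both are, none is given. Level-adjusted ratios of probe sets that share a gene had an SD of 0.72 log2 units, from 3325 pairs in 1625 genes whose brighter array reached 4 times the floor. That yardstick comes from within these 2 arrays and holds nothing of the variation from animal to animal or sort to sort. Maf itself went from 47.6 to 0.219 on its brightest probe set, at least 8.51-fold lower. Of its 5 measured probe sets, 4 lay below 0 and 1 above, with a mean ratio of -1.04. The position of these probe sets relative to the deletion was not examined here, so Maf is a limited check of the labels. Adgre1, encoding F4/80, was at 71.4 in wild type and 48.1 in c-Maf KO (0.60), Csf1r, the receptor for colony stimulating factor 1, at 625 and 248 (-0.24), and Itgam, encoding the Mac-1 alpha chain, at 5.76 and 3.94 (0.16).

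Of the 34 genes with a probe set, 30 were above the floor on at least 1 array after level adjustment, 19 on both, 10 only on the c-Maf KO array and 1 only on the wild-type array. Lama4, Lum, Mmp12 and Plau were below the floor on both arrays. After level adjustment, 5 of the 30 were at least 2-fold higher in c-Maf KO, and 0 were at least 2-fold lower. Of the other 25, 18 were measured on both arrays and lay within 2-fold, and 7 (Col1a1, Col3a1, Lamb1, Mmp2, Mmp19, Tek and Des) had bounds under 2-fold, which set no upper limit on the difference. Over all 13290 genes measured, 8.34% were at least 2-fold higher and 9.05% at least 2-fold lower. Of the 5 higher genes, 4 were below the floor in wild type and so could enter only by being high in c-Maf KO. Of the 19 genes with signal on both arrays, 1 was at least 2-fold higher and 0 lower, beside 7.62% and 8.57% of all such genes. The set was dim: 25 of the 30 measured genes had a brighter signal under 4 times the floor, a range in which 8.14% of all genes were at least 2-fold higher and 6.97% lower. With bounds taken at their value, matrix genes had a median ratio of 0.93, protease genes 0.07 and cell markers 0.06, beside 0.0087 over all measured genes. With genes above the floor on both arrays alone, the medians were 0.75, -0.11 and -0.07.

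In deposited intensity, 28 genes of the set were measured. Of these, 4 were at least 2-fold higher in c-Maf KO (Lama5, Lamc1, Nid1 and Sparc) and 5 at least 2-fold lower (Fn1, Lamb1, Timp2, Timp3 and Plaur). Over all genes measured on that scale, 1.19% were at least 2-fold higher and 39.8% at least 2-fold lower. Among the other genes of the set, Col4a1, Col4a2, Dcn, Thbs1, Mmp9, Mmp14, Adam8, Stab2, Kdr and Emcn had ratios of opposite sign on the 2 scales. Those of Col1a1, Col1a2, Col3a1, Timp1, Tek, Des, Cdh5, Pdgfrb and Reln kept their sign. A deposited log2 ratio above 0 was found in 10 of the 28, but 6 of these 10 were below the floor in wild type and could have no other sign. Over all measured genes the share above 0 was 15.8%.

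**Figure D1:**
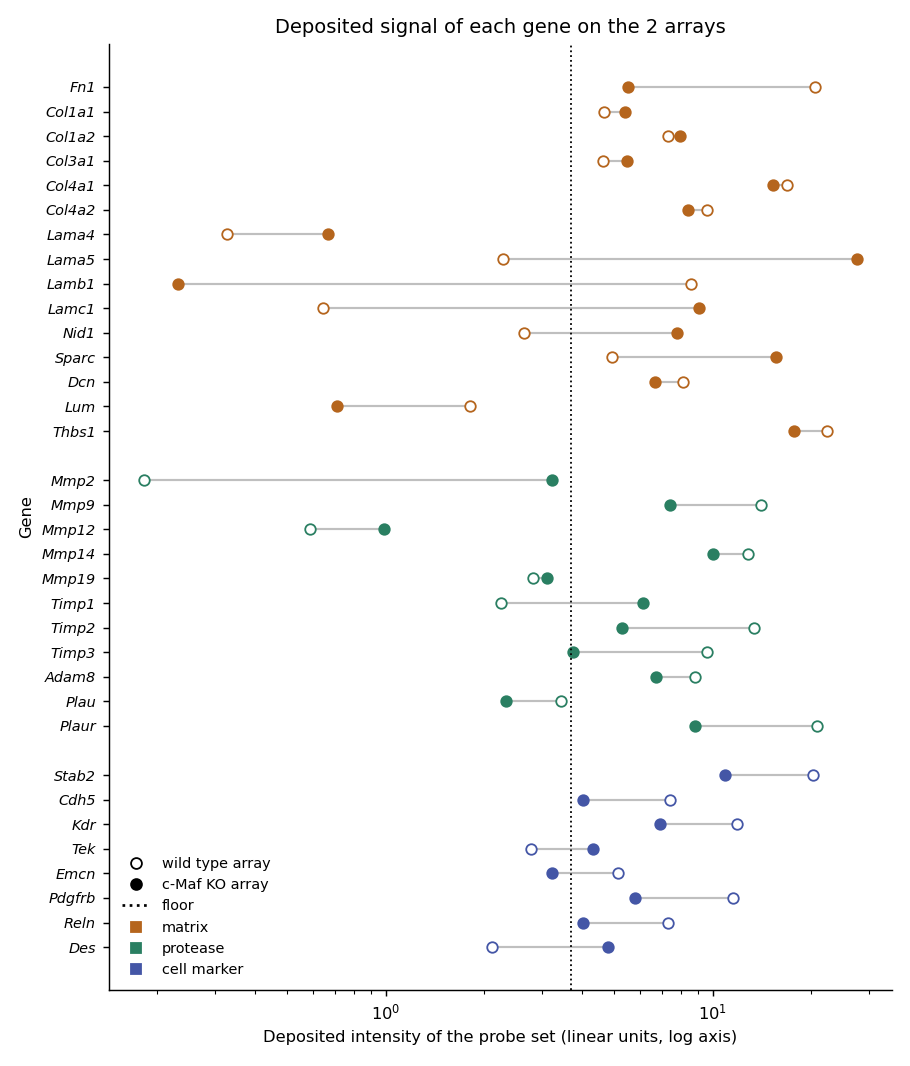
Deposited intensity (linear units, log axis) of the brightest probe set of each gene on the wild-type array (open circles) and the c-Maf KO array (filled circles), with the floor as a dotted line and colours for the matrix, protease and cell marker groups. Lama5, Lamc1, Nid1 and Sparc were brighter on the c-Maf KO array, whereas Fn1, Lamb1, Plaur and 6 of the 8 cell markers were brighter on the wild-type array.

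Fibrillar collagen genes were weak on both arrays. Col1a1, the alpha-1 chain of collagen I, had an intensity of 4.66 in wild type and 5.41 in c-Maf KO, at least 1.90-fold higher after level adjustment. Col1a2, the partner chain, was at 7.33 and 7.96, a ratio of 0.97. Col3a1, the collagen III chain, was at 4.62 and 5.49, at least 1.94-fold higher. Those of Col1a1 and Col3a1 are bounds. The deposited intensities differed little between the arrays, and their deposited log2 ratios ran from 0.12 for Col1a2 to 0.25 for Col3a1. A dimmer probe set of Col1a2 went the other way, from 5.49 to 2.19 (-0.21).

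The collagen IV chains of basement membranes were brighter. Col4a1 was at 16.9 in wild type and 15.2 in c-Maf KO, a level-adjusted ratio of 0.89. Its other probe set was at 10.00 and 12.2 (1.22), on the same side of 0. Col4a2 was at 9.58 and 8.41 (0.71). The promoters of these genes face each other: their RefSeq starts on chromosome 8 of GRCm38.p6 lie 21 bases apart on opposite strands. The 3 collagen genes measured on both arrays, Col1a2, Col4a1 and Col4a2, had ratios from 0.71 to 0.97, under 2-fold from the brightest probe set. In deposited intensity both collagen IV genes were slightly lower in c-Maf KO, at -0.15 and -0.19, well above the -0.93 of the median gene.

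Laminins are trimers of an alpha, a beta and a gamma chain, and their genes did not move alike. Lama5, the alpha-5 chain, went from 2.28 in wild type to 27.6 in c-Maf KO, at least 11.0-fold higher after level adjustment. A second Lama5 probe set went the other way, from 7.22 to 0.588 (at least 1.49-fold lower), and the remaining one was below the floor on both arrays. Lamc1, the gamma-1 chain found in most laminins, went from 0.644 to 9.11, at least 3.44-fold higher, and its other probe set was below the floor on both arrays. Lamb1, the beta-1 chain, went from 8.58 to 0.232, at least 1.75-fold lower, with 3 further probe sets below the floor on both. Lama4, the alpha-4 chain of endothelial laminin, was at 0.327 and 0.665, below the floor. No laminin gene was above the floor on both arrays, so every laminin ratio is a bound.

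Nid1, encoding nidogen-1, which links laminin to collagen IV, went from 2.65 to 7.81, at least 2.90-fold higher. A dimmer probe set, 0.249 and 3.33 in deposited intensity, was at least 1.13-fold higher. Sparc, a secreted collagen-binding glycoprotein of remodelling matrix and basement membranes, went from 4.91 to 15.6, a ratio of 2.55. It was the only gene of the set that was at least 2-fold higher while above the floor on both arrays. Its wild-type value was only just above the floor, at 3.89 against 3.75 after level adjustment. A second Sparc probe set went from 6.93 to 8.85 (1.22), also past 2-fold, and the remaining one from 5.30 to 0.644 (at least 1.11-fold lower). The mean over the 3 probe sets was 1.21, and for Lama5 the mean over its 2 measured probe sets was 1.44.

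Of the other matrix genes, Fn1, encoding fibronectin, which macrophages and hepatocytes both make, had the lowest ratio among genes of the set measured on both arrays. It went from 20.6 to 5.49, a ratio of -0.99, just short of 2-fold, and -1.91 in deposited intensity. Its second probe set was below the floor on both arrays. Thbs1, encoding thrombospondin-1, an activator of latent TGF-beta made by platelets and macrophages, was at 22.3 and 17.8 (0.75). Its other probe set, 2.71 and 5.38, was at least 1.89-fold higher. Dcn, encoding decorin, a proteoglycan that binds collagen fibrils, was at 8.12 and 6.68 (0.54). Lum, encoding the related proteoglycan lumican, was at 1.81 and 0.710, below the floor on both. Of the 13 matrix genes measured, 11 had a level-adjusted ratio above 0, Fn1 and Lamb1 being the exceptions, beside 50.4% of all measured genes. Of these 11, 5 (Col1a1, Col3a1, Lama5, Lamc1 and Nid1) were below the floor in wild type, so their sign was fixed by the filter.

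**Figure D2:**
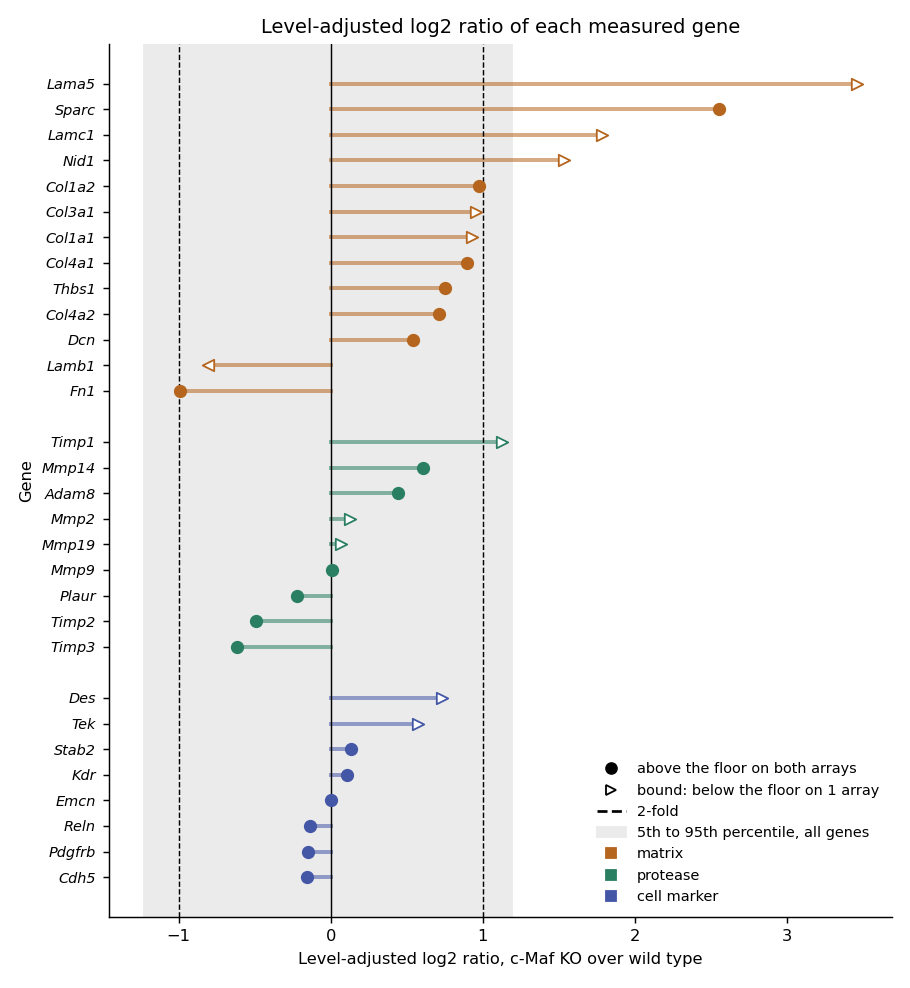
Level-adjusted log2 ratio of c-Maf KO over wild type for the 30 measured genes, ordered within the matrix, protease and cell marker groups; open triangles are bounds from genes below the floor on 1 array, dashed lines mark 2-fold and the grey band spans the 5th to the 95th percentile of all measured genes (-1.23 to 1.19). Lama5, Sparc, Lamc1 and Nid1 lie beyond the band, Col1a2, Col4a1 and Col4a2 lie inside the 2-fold line, and the 6 cell markers measured on both arrays lie between -0.15 and 0.14.

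The upstream sequences of the genes that were at least 2-fold higher are shown because c-Maf is a DNA-binding factor and these genes had the highest ratios of the set. Windows of 250 bases before the RefSeq start were read for 22 of the 35 genes. Lamc1 is not in that table, nor are Cdh5, Col1a1, Dcn, Fn1, Lama4, Lum, Mmp2, Mmp9, Mmp19, Pdgfrb, Plau and Thbs1. Capitals mark TGCTGA, the half-site of the Maf recognition element, and GGGCGG, the GC box bound by Sp1-type factors, on either strand. The windows are chr2:180225860-180226109 (minus strand) for Lama5, chr11:55420081-55420330 (minus strand) for Sparc, chr13:13437352-13437601 (plus strand) for Nid1 and chrX:20869916-20870165 (plus strand) for Timp1, all of RefSeq on GRCm38.p6 and written 5′ to 3′ along the gene.
Sparc: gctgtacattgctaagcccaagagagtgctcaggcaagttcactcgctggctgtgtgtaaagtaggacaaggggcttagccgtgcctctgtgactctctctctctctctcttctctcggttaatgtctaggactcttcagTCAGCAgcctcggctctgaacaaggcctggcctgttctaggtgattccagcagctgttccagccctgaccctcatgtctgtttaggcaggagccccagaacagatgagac
Lama5: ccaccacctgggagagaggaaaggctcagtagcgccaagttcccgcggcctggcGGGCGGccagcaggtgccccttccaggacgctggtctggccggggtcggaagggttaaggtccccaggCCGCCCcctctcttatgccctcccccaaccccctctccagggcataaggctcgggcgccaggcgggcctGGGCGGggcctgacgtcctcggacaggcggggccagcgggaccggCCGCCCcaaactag
Nid1: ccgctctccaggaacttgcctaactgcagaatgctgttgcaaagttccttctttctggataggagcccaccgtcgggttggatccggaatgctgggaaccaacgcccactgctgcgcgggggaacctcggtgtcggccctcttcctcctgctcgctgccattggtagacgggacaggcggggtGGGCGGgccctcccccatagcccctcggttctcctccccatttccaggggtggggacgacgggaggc
Timp1: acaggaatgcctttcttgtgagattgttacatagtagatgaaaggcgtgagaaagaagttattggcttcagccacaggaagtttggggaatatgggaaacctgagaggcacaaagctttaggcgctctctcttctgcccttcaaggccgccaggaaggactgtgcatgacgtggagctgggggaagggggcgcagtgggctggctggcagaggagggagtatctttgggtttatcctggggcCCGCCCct

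In the Sparc window, 1 TGCTGA match lay on the opposite strand at positions -110 to -105 relative to the start, and no GC box was found. The Lama5 window held 4 GC boxes, Nid1 and Timp1 1 each, and none of these 3 windows held TGCTGA. Over the 24 windows of the set, TGCTGA was found in 6, those of Col3a1, Emcn, Lamb1, Mmp14, Sparc and Tek, whereas 16.1% of all 32851 windows held it. These 6 genes include Lamb1, which was lower, and Sparc, which was higher. The AP-1 site TGANTCA, which forms the centre of the full Maf element (TGCTGA and its reverse complement joined by 1 free base), was found in the windows of Mmp12 and Plaur and in 6.75% of all windows. The full element was in 0 of the 24 and in 2 of all windows. GGGCGG was found in 14 of the 24 and in 32.7% of all windows. A match is a description of the letters and shows no binding.

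Genes that cut matrix or restrain its cutting had a median ratio near 0, with single genes on either side. Matrix metalloproteinases are secreted or membrane-bound zinc enzymes. Mmp9, the gelatinase of neutrophils and macrophages, was at 14.0 in wild type and 7.42 in c-Maf KO, a ratio of 0.01. Mmp14, the membrane-bound enzyme that activates pro-Mmp2, was at 12.8 and 10.04 (0.61), and its second measured probe set at 5.85 and 3.98 (0.15). Mmp2, the stromal gelatinase, was at 0.183 and 3.23, with no wild-type signal above the floor, at least 1.09-fold higher. Mmp19 was likewise at 2.83 and 3.12, at least 1.05-fold higher. Mmp12, the macrophage elastase, was at 0.586 and 0.988, below the floor on both arrays. Of the Mmp genes of the set, only Mmp9 and Mmp14 thus had signal on both arrays, and neither differed by 2-fold.

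The tissue inhibitors of metalloproteinases split. Timp1, the inducible inhibitor, went from 2.25 in wild type to 6.11 in c-Maf KO and was at least 2.18-fold higher, from its single probe set. Timp2, which also takes part in the activation of pro-Mmp2, went from 13.4 to 5.27 (-0.49). Timp3, the inhibitor that stays bound to matrix, went from 9.63 to 3.74 (-0.61). Timp2 and Timp3 were thus on the lower side while Timp1 was on the higher side, although the ratios of Timp2 and Timp3 are within the 0.72 spread between probe sets. Both also had a dim probe set on the other side of 0: for Timp2 from 0.189 to 3.02 (at least 1.01-fold higher) and for Timp3 from 0.321 to 3.43 (at least 1.16-fold higher). Another Timp2 probe set, 6.88 and 0.894, was at least 1.42-fold lower.

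Plaur and Adam8, which act in proteolysis at the cell surface, were within 2-fold. Plaur, the urokinase receptor of monocytes and macrophages, was at 20.8 and 8.84, a ratio of -0.22 after level adjustment and -1.24 in deposited intensity. Plau, encoding urokinase itself, was at 3.44 and 2.33, below the floor on both arrays. Adam8, a membrane-bound metalloproteinase of myeloid cells, was at 8.82 and 6.72 (0.45). Of the 9 genes measured in this group, 6 had a ratio above 0, beside 50.4% of all genes, and for 3 of these (Mmp2, Mmp19 and Timp1) the filter fixed the sign. In the group, 1 gene (Timp1, a bound) was at least 2-fold higher and 0 at least 2-fold lower, beside 8.34% and 9.05% of all genes.

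The 6 cell markers with signal on both arrays were within 2-fold, and Tek and Des had bounds. Stab2, a scavenger receptor of liver sinusoidal endothelium that takes up hyaluronan, was at 20.3 in wild type and 10.9 in c-Maf KO, a ratio of 0.14. Kdr, the VEGF receptor of endothelium, was at 11.9 and 6.92 (0.11). Cdh5, encoding VE-cadherin of endothelial junctions, was at 7.43 and 4.02 (-0.15), and its dimmer probe set at 4.63 and 3.63, at least 1.23-fold higher. Emcn, the endothelial sialomucin endomucin, was at 5.15 and 3.22 (0.0035). Tek, the angiopoietin receptor, was at 2.79 and 4.32, at least 1.49-fold higher. The 5 endothelial genes of the set thus had a median of 0.11, with Tek taken at its bound.

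Of the stromal markers, Pdgfrb, the PDGF receptor of pericytes and stellate cells, was at 11.6 and 5.80 (-0.15). Reln, encoding reelin, a secreted glycoprotein of stellate cells in the liver, was at 7.31 and 4.01 (-0.14). Des, encoding the intermediate filament desmin of stellate and muscle cells, was at 2.12 and 4.77, at least 1.66-fold higher. The second probe sets of Pdgfrb, Reln and Des were below the floor on both arrays. In deposited intensity the 8 markers had a median ratio of -0.82, near the median of -0.79 over all genes measured on that scale.

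**Figure D3:**
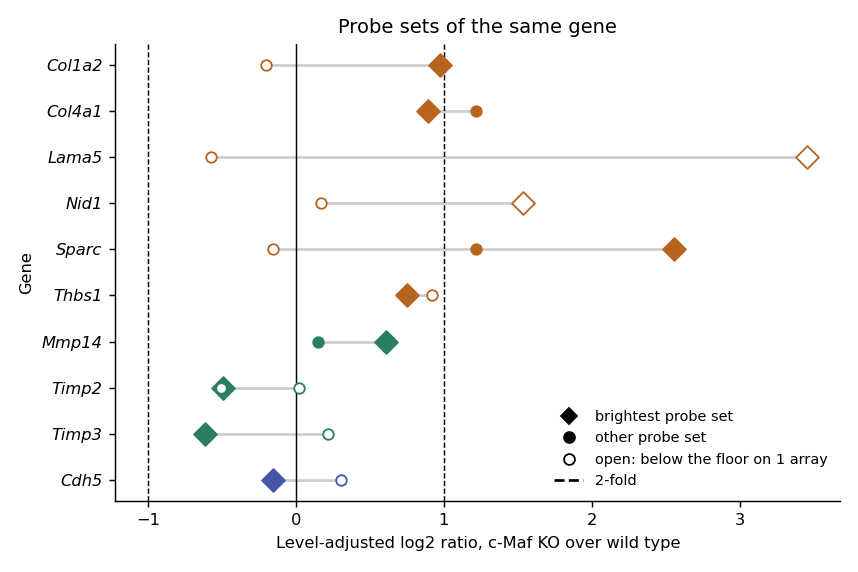
Level-adjusted log2 ratios of all measured probe sets for the 10 genes of the set with more than 1; diamonds are the brightest probe set used for the gene, circles the others, and open symbols are bounds. In 4 genes (Col4a1, Nid1, Thbs1 and Mmp14) all measured probe sets lie above 0, and in 6 they lie on both sides, with the widest gap in Lama5.

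The set had 71 probe sets, of which 42 were above the floor on at least 1 array. In the 10 genes with more than 1 measured probe set, these lay on the same side of 0 in 4 (Col4a1, Nid1, Thbs1 and Mmp14) and on both sides in 6 (Col1a2, Lama5, Sparc, Timp2, Timp3 and Cdh5). In all 6, the probe set opposite to the brightest one was below the floor on 1 array, so that each disagreement involved a bound. The ratio of 3' to 5' control signal was 13.3 in wild type and 6.05 in c-Maf KO for Actb, and 1.83 and 0.901 for Gapdh, so a ratio may depend on where in the transcript a probe set lies. The part of this difference in the ratios above was not tested.

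Further genes of the same pathways were read as 5 lists. Of 21 measured matrix proteins, 5 were at least 2-fold higher and 1 lower, with a median of 0.49, beside the 8.34% higher and 9.05% lower of all genes. Of the 21, 10 were below the floor in wild type only, so their sign was fixed by the filter. Of the 10 above the floor on both arrays, 1 was higher and 1 lower (median 0.41), beside 7.62% and 8.57% of all such genes. Tgfbi, a TGF-beta-induced matrix protein also made by macrophages, was at 299 and 351 (1.32). Hspg2, encoding the basement membrane proteoglycan perlecan and chosen after its value was seen, was at 86.8 and 34.3 (-0.17). Of 12 genes that fold or crosslink collagen, 1 was higher and 0 lower (median 0.38). The higher gene was Tgm2, the crosslinking transglutaminase that macrophages also express, at 34.4 and 43.9 (1.49).

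Of 17 measured further proteases and inhibitors, 1 was higher and 1 lower (median 0.36), the lower being the sheddase gene Adam17 at 35.1 and 8.38 (-1.02). Of 18 receptors for matrix, 1 was higher and 2 lower (median -0.20). The integrin chain genes Itgb5 (55.7 and 10.6, ratio -1.30) and Itgav (42.0 and 9.21, ratio -1.12), whose product pair binds vitronectin and fibronectin, were the lower genes, although 2 of 3 measured probe sets of Itgav and 1 of 4 of Itgb5 lay above 0. Itgb1, the shared beta chain of collagen, laminin and fibronectin receptors, was at 96.3 and 93.3 (1.12). Of 13 growth factors of vessels and stroma, 2 were higher and 0 lower (median 0.28), beside the 8.34% higher and 9.05% lower of all genes. Of the 13, 5 were below the floor in wild type only, and of the 5 above it on both arrays 1 was higher.

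**Figure D4:**
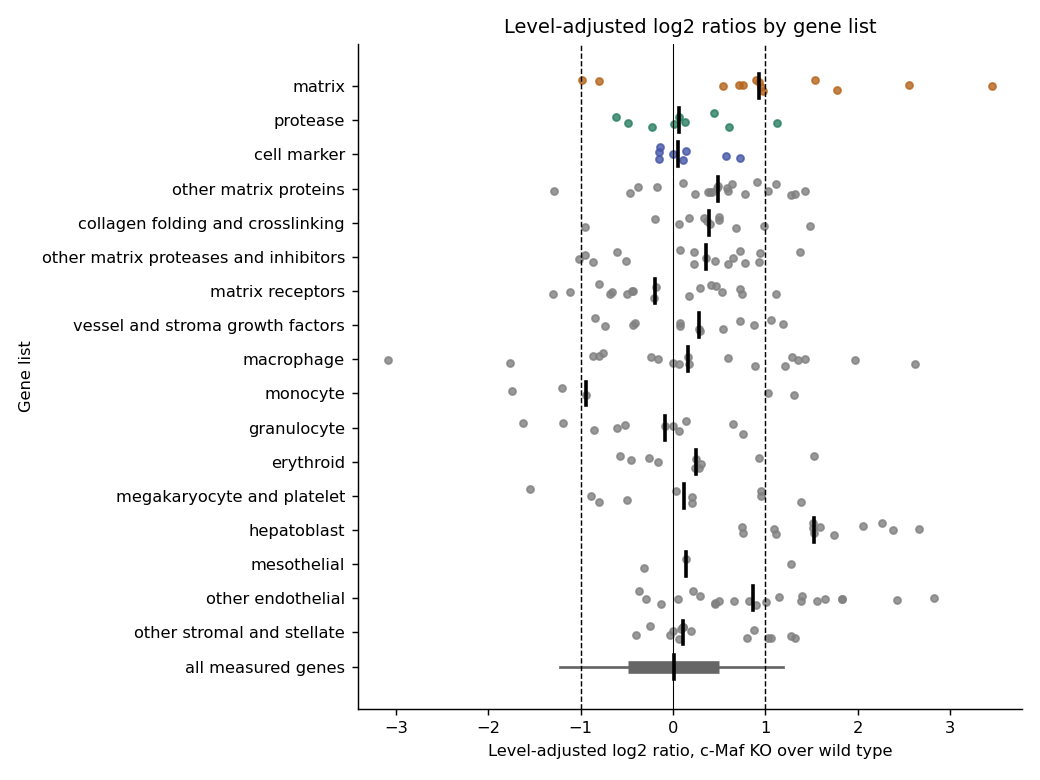
Level-adjusted log2 ratios of c-Maf KO over wild type for each measured gene (points) of the matrix, protease and cell marker groups, of the 5 wider pathway lists and of 9 cell type lists, with list medians as black bars and the 2-fold lines dashed; the last row gives the 5th, 25th, 75th and 95th percentiles of all measured genes. With bounds taken at their value, matrix genes have a median of 0.93, other endothelial genes 0.86 and hepatoblast genes 1.52, against 0.0087 for all genes.

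Other markers of the cells that make matrix did not all follow the 8 markers of the set. Of 22 measured endothelial genes outside the set, 10 were at least 2-fold higher and 0 lower, with a median of 0.86, beside 8.34% of all genes higher. Of the 22, 3 were below the floor in wild type only, so their sign was fixed by the filter. Of the 18 above the floor on both arrays, 7 were higher and 0 lower (median 0.74), beside 7.62% and 8.57% of all such genes. Their summed deposited intensity was 216 in wild type and 233 in c-Maf KO. Aplnr, the apelin receptor, was at 11.9 and 41.4 (2.82), Egfl7, a matrix-bound endothelial factor, at 22.5 and 13.1 (0.29), and Stab1, a scavenger receptor that macrophages share, at 23.4 and 10.4 (-0.13). The 2 measured Aplnr probe sets both lay above 0, but their mean was smaller, at 1.62. Icam2, at 0.772 and 13.9, Robo4, at 5.87 and 9.59 (1.56), and Sox17, at 5.72 and 8.34 (1.38), were chosen after their values were seen. Lyve1 was at 11.5 and 8.55 (0.50) and the tight junction gene Cldn5 at 9.34 and 4.22 (-0.37). Pecam1, Tie1 and F8 were below the floor on both arrays, as was the brightest probe set of Gata4. Endothelial genes were thus mixed. Of the 22 measured outside the set, 10 were at least 2-fold higher, Aplnr among them, and 0 were lower. By contrast, Cdh5, Kdr, Stab2, Stab1 and Cldn5 lay between -0.37 and 0.14. Icam2, Robo4 and Sox17 were picked by their values and do not stand for their list, and Icam2 was below the floor in wild type. Whether the endothelial genes of the set differed from those outside it was not tested.

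Of 15 measured stromal and stellate genes outside the set, 4 were at least 2-fold higher and 0 lower, beside 8.34% and 9.05% of all genes. Their median was 0.11, and the sum of the list was 138 in wild type and 113 in c-Maf KO. Of the 15, 7 were below the floor in wild type only, so their sign was fixed by the filter. Of the 6 above the floor on both arrays, 2 were higher and 0 lower (median 0.46). Acta2, the smooth muscle actin of myofibroblasts, was at 28.7 and 23.0 (0.80), Tpm2 at 24.8 and 12.7 (0.09) and Nes at 20.0 and 10.6 (0.11). The defining markers Pdgfra, Lrat, Cygb, Tagln, Cnn1 and Colec11 were below the floor on both arrays. The hepatoblast list was at least 2-fold higher in c-Maf KO in 11 of 13 measured genes and lower in 0, beside the same shares of all genes. Of its 10 genes above the floor on both arrays, 9 were higher and 0 lower (median 1.63). Its median over the 13 was 1.52, with a sum of 400 in wild type and 624 in c-Maf KO. Its brightest genes were Afp (209 and 268), Alb (63.8 and 136) and Ttr (42.0 and 77.8), and Apob, Trf and Fgb were below the floor on both. Hepatoblasts also express fibronectin and laminin genes. The part of hepatoblast, endothelial or stromal RNA in the matrix ratios was not tested.

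Blood cells that carry several of these genes were present on both arrays. The counts of these lists stand beside the 8.34% higher and 9.05% lower of all genes. The megakaryocyte and platelet list, which bears on Thbs1 and Sparc, had 1 of 10 measured genes higher and 1 lower (median 0.12), with a sum of 214 and 119. Its brightest genes were Pf4 (102 and 52.1), Itga2b (22.9 and 20.7) and Ppbp (15.3 and 14.6). The granulocyte list, which bears on Mmp9 and Adam8, had 0 of 11 higher and 2 lower (median -0.09), with a sum of 15150 and 8757. S100a9 (4926 and 3812, ratio 0.07) and S100a8 (4717 and 3317, ratio 0.00), which encode calprotectin, stood near 0, whereas Mpo, encoding myeloperoxidase, was lower in c-Maf KO (1676 and 427, ratio -1.19). The erythroid list had 1 of 10 higher and 0 lower (median 0.25; sum 8554 and 5409), led by Hbb-y (7061 and 4650), Slc4a1 (831 and 395) and Hba-x (283 and 149). The monocyte list had 2 of 5 higher and 2 lower (median -0.94, sum 2617 and 1021). Ccr2, the chemokine receptor, was at 1212 and 190 (-1.74), F13a1 at 916 and 237 (-0.94) and Plac8 at 473 and 586 (1.31). Of the 4 measured Ccr2 probe sets, however, 2 lay above 0 and 2 below, with a mean of -0.10. Of 19 measured macrophage genes, Maf included, 6 were higher and 2 lower (median 0.16; sum 1710 and 915), and beside Csf1r the brightest were Lyz2 (646 and 355) and C1qb (124 and 102). Mesothelial genes had 1 of 3 higher and 0 lower (median 0.14; sum 17.0 and 12.4), with Upk1b at 2.52 and 6.69, Upk3b at 5.93 and 0.204 and Lrrn4 at 2.65 and 3.26, and with Msln, Wt1 and Krt19 below the floor on both. The part of these cells in the ratios of Thbs1, Sparc, Mmp9 and Adam8 was not tested.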

How the data were processed

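Biotin-labelled RNA of sorted cells was hybridised to Affymetrix GeneChip arrays, per the labels' protocols. The deposited table holds a linear intensity per probe set and array, and neither labels nor header say how the authors summarised or scaled it. Of 45101 probe sets, 34945 named 1 gene, 932 named several, 9160 named none and 64 were controls, by the platform annotation. Symbols of 34741 were matched by Entrez ID to the GRCm38.p6 gene table and taken from it, whether or not they changed. Each gene was read from its brightest probe set by mean deposited intensity. The arrays were quantile normalized on the log2 scale (numpy 2.4.6, pandas 2.3.3, Python 3.11.15), a floor was set at the 50th percentile over both arrays, and ratios of c-Maf KO over wild type were taken. With 1 array a genotype no test was possible. The calculation was tested on simulated data. There, only genes brighter than any measured gene of the set were changed, with less noise than the 0.72 spread between probe sets. The simulation thus does not bear on dim genes or bounds. Every member was named. Of each wider list, the text names up to 2 genes with the largest rise and fall past 2-fold among those measured on both arrays and reaching 4 times the floor on the brighter, the 3 brightest genes of each cell type list, and a short list of defining markers. The members, lists and main scale were chosen with earlier results of these data known. Alternatives covered the scaling, the floor, the probe set, the fold and the brightness filter.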

Additional observations from a re-analysis of the deposited data

How the results depend on the processing

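Over all measured genes, 52.0% of 2-fold differences were lower in c-Maf KO on the level-adjusted scale, against 97.1% as deposited, 77.5% with equal medians, 37.2% with centred ratios and 43.8% with means over probe sets. The share over all genes moved with the setting too and is given in brackets. Members at least 2-fold lower numbered 0 of 30 (9.05%), but 5 of 28 as deposited (39.8%) and 1 of 30 with equal medians (16.3%). They numbered 1 of 33 with the 25th-percentile floor (17.7%), 1 of 30 with the floor as a pseudocount (8.19%) and 3 of 30 at 1.5-fold (21.0%). Members at least 2-fold higher numbered 5 of 30 (8.34%), but 10 of 28 with centred ratios (13.9%). They numbered 8 of 33 with the 25th-percentile (17.7%) and 3 of 24 with the 65th-percentile floor (6.01%). At 1.5-fold they numbered 13 of 30 (21.2%) and at 3-fold 3 of 30 (1.59%). At 4 times the floor they numbered 2 of 5 (8.63%), and above the floor on both arrays 1 of 19 (7.62%). As deposited, the median was 0.12 for matrix, -0.92 for protease and -0.82 for cell marker members, and the matrix median was 1.72 at 4 times the floor, where 5 members remained and no protease member had a value. Over 9 settings Lama5, Lamc1 and Sparc were at least 2-fold higher in every one, and Nid1 and Timp1 in 7, the lowest being 0.82 and 0.42 with the 65th-percentile floor. These settings reread the same 2 arrays and are not independent checks. Lama5, Lamc1, Nid1 and Timp1 were below the floor in wild type and passed the filter only through the c-Maf KO array. Lamc1 and Timp1 had 1 measured probe set each, so averaging could not change them. The filter for signal on both arrays, which only Sparc passed while 2-fold higher, was not among the 9. Values of members that moved by more than the spread of 0.72 numbered 18 of 28 as deposited, 9 of 30 with the 25th-percentile floor, 2 of 30 with the pseudocount, 2 of 30 with means over probe sets, 1 of 25 without suffixed probe sets and 0 with the other alternatives. The cause of these shifts was not tested beyond the scale itself. No paired analysis was possible because each genotype had 1 array. Dim signal limits most of the set, with 25 of 30 measured members under 4 times the floor.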
